A study of Mus musculus with 15 samples.

Results

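Immediate-early genes and heat shock genes are among the best known transcripts that cells switch on within minutes of a stimulus or a stress. A set of 41 genes from these families was followed here, out of 24891 genes in the expression table, across bulk 105K tumors and tumor cells sorted from them. Some of the 41, such as HSPA8 and JUND, are also expressed without a stimulus. The genes were listed by name, and the list was drawn up because FOSB was far higher in the sorted samples than in the bulk samples. Sorted against bulk is therefore described without a test, and the tests concern the shRNAs. By role, the list holds 8 AP-1 factors, 9 other transcription factors, 12 feedback and signalling genes, 4 growth arrest and stress genes and 8 heat shock chaperones.

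105K is a Tsc2-deficient mouse renal tumor cell line, so every group shared the loss of Tsc2 in its tumor cells. Cells stably expressing a non-targeting shRNA (sh-NC) or an shRNA against the immune checkpoint B7-H3, encoded by CD276, were injected with matrigel into the flanks of male C57BL/6J mice 6 weeks old. RNA was sequenced from bulk tumors carrying sh-NC, bulk tumors carrying sh-B7-H3 (1), and cells sorted out of tumors that carried sh-NC, sh-B7-H3 (1) or else sh-B7-H3 (2), with 3 libraries in each of the 5 groups, where (1) and (2) are different shRNAs. Sorted cells had been through a tumor dissociation kit and then a magnetic depletion of non-tumor cells, and bulk tumors had not. No bulk sh-B7-H3 (2) library was analysed here. Levels are FPKM, counts of fragments corrected for transcript length and library size, divided by a factor for each library so that the typical gene has the same level in all 15, and are called scaled FPKM.

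Many immediate-early transcripts encode transcription factors. FOS and JUN proteins pair to form AP-1, and EGR, NR4A and KLF proteins bind their own sites. Others, such as the phosphatases of the DUSP family and ZFP36, which marks short-lived mRNAs for decay, end the signal that induced them. Heat shock proteins fold or hold other proteins, and HSPA1A, HSPA1B, HSPH1 and DNAJB1 are classical targets of the heat shock factor HSF1, while HSPA8 is made without stress. Enzymatic dissociation of tissue is known as a trigger of these genes.

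Some features of the libraries touch every result that follows. CD276 was at 7.29 to 14.0 scaled FPKM in sorted sh-B7-H3 (1) cells and at 17.3 to 34.0 in sorted sh-NC cells (log2 fold change -1.04, limma adjusted p = 0.0547), but at 23.3 to 25.7 in sorted sh-B7-H3 (2) cells and at 17.8 to 24.4 in bulk sh-B7-H3 (1) tumors against 20.8 to 23.5 in bulk sh-NC tumors. Those groups are therefore libraries labelled as knockdowns whose CD276 level was not detectably lower (adjusted p = 0.775 and 0.709). The summed level of 10 leukocyte markers was 339 to 665 scaled FPKM in bulk tumors and 5.84 to 12.03 in sorted sh-NC and sh-B7-H3 (1) cells, none of the 10 being at 0 in every library of a group. Sorted sh-B7-H3 (2) replicate 1 stood apart at 353, with 7.64 and 7.71 in replicates 2 and 3. Fewer cells of a type and less RNA per cell cannot be told apart in such samples. All 7 epithelial markers were detected, with summed levels of 746 to 1848. A single small RNA gene, MIR6236, accounted for between 6.01% and 79.7% of all FPKM, depending on the library.

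The table pairs symbols with values and gives no positions, so loci were read from GENCODE vM21 (GRCm38, the same build as the mm10 of the submitters' processing notes). FOS lies at chr12:85473890-85477273 on the plus strand, FOSB at chr7:19302696-19310051 on the minus strand, ATF3 at chr1:191170296-191218039 on the minus strand and DUSP1 at chr17:26505590-26562128 on the minus strand. HSPA1A (chr17:34969190-34972156) and HSPA1B (chr17:34956436-34959238) are neighbours on the minus strand. The promoters of 4 of the 5 genes with the largest sorted-minus-bulk difference are printed here (RefSeq, GRCm38.p6, 250 bases before to 50 after the start, 5′ to 3′ on the gene's own strand), at chr12:85473640-85473939, chr7:19309996-19310295, chr1:191183284-191183583 and chr17:26508423-26508722. Positions are counted from the RefSeq start, which for ATF3 and DUSP1 lies inside the locus given above and not at its upstream end. Capitals mark TGACG, the core of the cyclic AMP response element (CRE) that CREB and ATF factors bind, on either strand.
FOS: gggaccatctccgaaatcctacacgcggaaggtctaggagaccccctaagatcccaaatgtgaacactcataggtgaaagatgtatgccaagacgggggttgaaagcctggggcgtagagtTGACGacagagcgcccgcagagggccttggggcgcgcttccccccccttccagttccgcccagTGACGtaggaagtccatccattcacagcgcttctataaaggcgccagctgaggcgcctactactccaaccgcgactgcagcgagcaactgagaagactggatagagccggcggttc
FOSB: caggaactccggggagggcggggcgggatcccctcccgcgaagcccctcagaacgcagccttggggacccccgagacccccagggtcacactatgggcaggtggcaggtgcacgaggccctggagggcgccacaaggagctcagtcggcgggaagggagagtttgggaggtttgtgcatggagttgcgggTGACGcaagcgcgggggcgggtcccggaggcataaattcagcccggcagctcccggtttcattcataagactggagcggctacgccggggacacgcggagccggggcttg
ATF3: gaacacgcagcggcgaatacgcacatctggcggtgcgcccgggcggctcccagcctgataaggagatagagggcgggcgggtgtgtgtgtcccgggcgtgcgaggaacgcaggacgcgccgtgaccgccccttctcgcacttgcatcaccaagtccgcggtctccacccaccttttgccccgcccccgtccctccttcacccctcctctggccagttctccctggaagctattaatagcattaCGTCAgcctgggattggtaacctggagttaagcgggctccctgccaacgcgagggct
DUSP1: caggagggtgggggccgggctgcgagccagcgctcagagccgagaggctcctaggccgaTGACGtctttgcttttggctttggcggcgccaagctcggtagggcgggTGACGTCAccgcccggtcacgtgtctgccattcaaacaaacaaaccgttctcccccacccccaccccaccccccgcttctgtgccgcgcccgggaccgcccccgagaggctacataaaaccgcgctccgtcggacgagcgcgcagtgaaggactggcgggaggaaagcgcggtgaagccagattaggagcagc
In all 4 windows TGACG or its complement occurred, from 7 bases before the start in ATF3 to 191 before it in DUSP1, and FOS held it 129 and 66 bases before the start. Promoters were listed for 33 of the 41 genes, the others being FOSL1, EGR1, EGR3, IER2, MYC, NFKBIZ, HSPA8 and HSP90AA1. TGACG stood in the windows of 17 of the 33 genes (51.5%), and in those of 6228 of 27025 genes in the table (23.05%), or 20.8% of all its 32851 promoters. The full CRE, TGACGTCA, which contains TGACG, stood in 3 of 33, namely DUSP1, BTG2 and PPP1R15A, and in 2.03% of all genes. The AP-1 site TGANTCA stood in 0 of 33 and in 8.97% of all genes. A serum response element core (the CArG box) was found in EGR2, ZFP36 and DUSP5 and in 1.81% of all genes. No motif was searched outside the windows, so genes without a match here, FOS among them, may hold one further upstream. One strict form of the heat shock element, GAA, TTC and GAA with any 2 bases between neighbours, was found in HSPH1 and in 0.662% of all genes. Shorter or imperfect elements were not searched, so this says nothing of elements in the windows of HSPA1A, HSPA1B or DNAJB1. Both strands were searched, and a match is a description of the letters only.

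HSPA1A and HSPA1B encode nearly the same inducible HSP70, and their promoters at chr17:34972107-34972406 and chr17:34959189-34959488 were identical at 296 of 300 bases. They are shown because the table reports these near-identical genes separately. Capitals mark the 4 bases that differ.
HSPA1A: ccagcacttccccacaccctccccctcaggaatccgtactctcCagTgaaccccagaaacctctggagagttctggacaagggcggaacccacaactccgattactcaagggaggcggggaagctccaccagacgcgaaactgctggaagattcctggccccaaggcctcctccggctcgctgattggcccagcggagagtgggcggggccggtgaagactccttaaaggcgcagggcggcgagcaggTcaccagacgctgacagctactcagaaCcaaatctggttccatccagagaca
HSPA1B: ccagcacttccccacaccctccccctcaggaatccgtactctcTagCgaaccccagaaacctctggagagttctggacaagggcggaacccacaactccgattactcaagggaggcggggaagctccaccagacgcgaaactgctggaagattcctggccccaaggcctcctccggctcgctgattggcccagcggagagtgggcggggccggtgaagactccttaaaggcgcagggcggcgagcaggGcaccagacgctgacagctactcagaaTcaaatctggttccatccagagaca
Reads from near-identical copies may be split between them in a way that is not stated, so the values of each are uncertain.

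In sorted cells many immediate-early genes of the list stood far above their levels in bulk tumors, while most heat shock chaperones lay close to them. FOS, which encodes the dimerization partner of JUN in AP-1, was at 7.23, 4.37 and 12.9 scaled FPKM in bulk sh-NC tumors and at 6.13, 5.10 and 5.56 in bulk sh-B7-H3 (1) tumors. In sorted cells its levels were 266, 245 and 188 with sh-NC, 322, 309 and 417 with sh-B7-H3 (1), and 287, 304 and 284 with sh-B7-H3 (2). The lowest sorted library was thus far above the highest bulk library, and the ratio of means was 28.6 for sh-NC and 62.4 for sh-B7-H3 (1).

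FOSB, a close relative of FOS, was at 1.34, 1.80 and 2.23 in bulk sh-NC tumors and at 0.318, 0.411 and 0.503 in bulk sh-B7-H3 (1) tumors. Sorted levels were 44.0, 34.7 and 24.1 with sh-NC, 74.9, 69.3 and 107 with sh-B7-H3 (1), and 76.6, 72.2 and 69.4 with sh-B7-H3 (2). The ratio of sorted to bulk means was 19.1 for sh-NC and 204 for sh-B7-H3 (1), the latter against bulk levels under 1 scaled FPKM. FOSB was the gene with the lowest bulk level among those that led the difference.

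**Figure D1:**
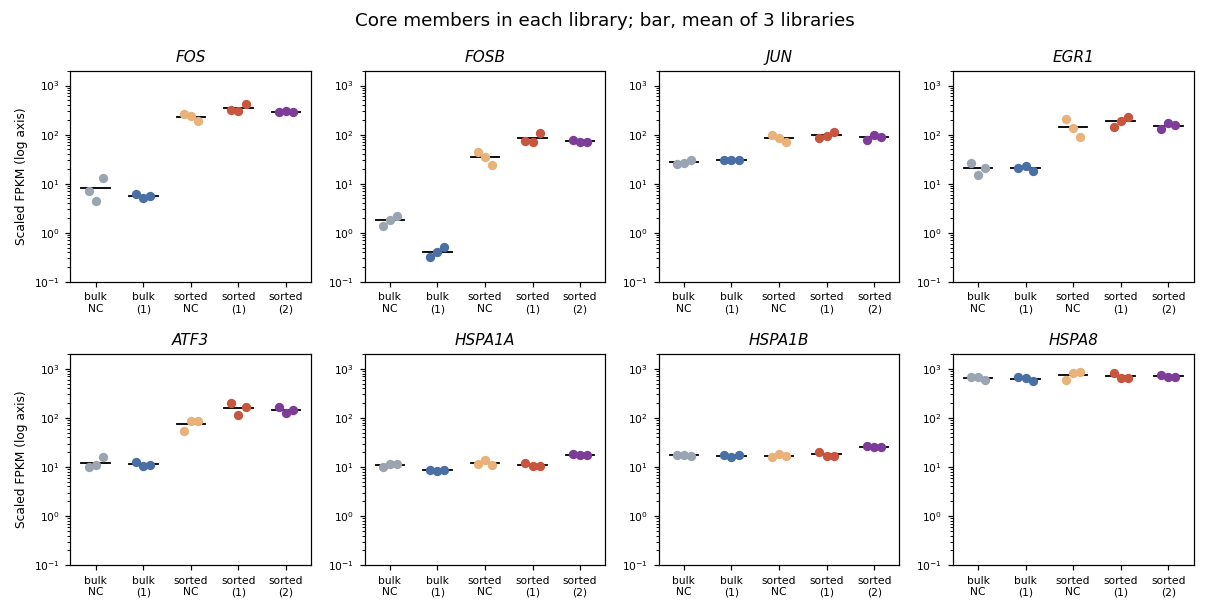
Scaled FPKM (log axis) of 8 genes in each of the 15 libraries, where points are libraries, bars are means of 3, and (1) and (2) are the B7-H3 shRNAs. FOS, FOSB, JUN, EGR1 and ATF3 are higher in every sorted library than in every bulk library, while HSPA1A and HSPA1B overlap between bulk and sorted sh-NC libraries and are highest in sorted sh-B7-H3 (2) libraries (17.1 to 18.3 and 25.0 to 27.2).

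JUN, the main DNA-binding partner in AP-1, was at 25.3 to 30.8 over the 6 bulk libraries, and at 97.6, 84.9 and 72.2 in sorted sh-NC cells, 85.3, 93.8 and 111 with sh-B7-H3 (1), and 78.6, 96.7 and 90.2 with sh-B7-H3 (2). EGR1, a zinc finger factor induced by growth factors, was at 26.6, 14.9 and 20.5 in bulk sh-NC tumors and at 20.6, 23.0 and 17.7 in bulk sh-B7-H3 (1) tumors. Its sorted levels were 204, 136 and 89.1 with sh-NC, 144, 189 and 230 with sh-B7-H3 (1), and 131, 169 and 154 with sh-B7-H3 (2). ATF3, a stress-induced AP-1 and CRE binding factor, was at 9.92, 10.8 and 16.2 in bulk sh-NC and 12.7, 10.5 and 11 in bulk sh-B7-H3 (1), against 52.9, 87.2 and 85.3 in sorted sh-NC, 200, 113 and 168 in sorted sh-B7-H3 (1) and 164, 126 and 142 in sorted sh-B7-H3 (2). For each of these genes, no sorted library overlapped a bulk library. The sorted sh-NC libraries spread by more than 2 times between the lowest and the highest for EGR1.

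On the log2(scaled FPKM + 1) scale, 18 of the 41 genes were higher in all 3 sorted than in all 3 bulk sh-NC libraries, 7 were lower and 16 overlapped, where 16.9% of the 11418 genes past the filter on low values were higher without overlap and 21.3% lower. With sh-B7-H3 (1), 24 were higher, 5 lower and 12 overlapped, beside 25% and 29.6% of 11677 genes. Since the list was chosen on this contrast, nothing is read from these counts. Of the 41, 38 passed the filter in the sh-NC libraries and 39 in the sh-B7-H3 (1) libraries. The median difference was 0.29 over the 41 genes and -0.04 over all genes past the filter for sh-NC, and 0.56 and -0.03 for sh-B7-H3 (1). The 5 largest differences were those of FOS (4.77), FOSB (3.63), EGR1 (2.69), ATF3 (2.51) and DUSP1 (2.46) with sh-NC. With sh-B7-H3 (1) the same 5 genes led, with FOSB at 5.88, FOS at 5.72, ATF3 at 3.67, DUSP1 at 3.45 and EGR1 at 3.12.

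**Figure D2:**
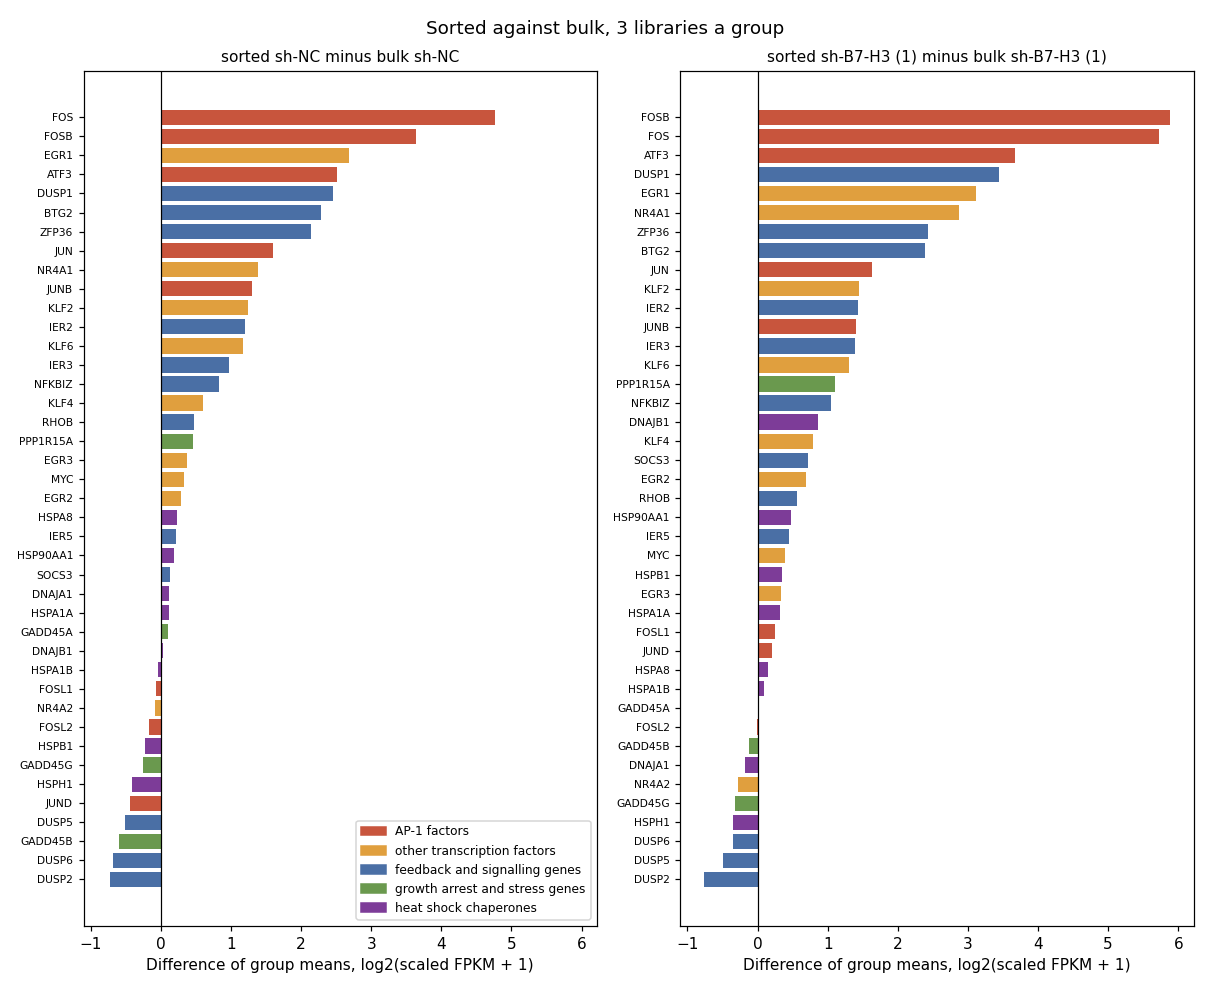
Difference of group means in log2(scaled FPKM + 1), sorted minus bulk, for all 41 genes with sh-NC (left) and sh-B7-H3 (1) (right), 3 libraries a group, coloured by role. AP-1 factors, other transcription factors and feedback genes fill the top, from 4.77 for FOS and 5.88 for FOSB down, and the chaperones lie between -0.41 and 0.24 with sh-NC and between -0.35 and 0.86 with sh-B7-H3 (1).

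The difference was not shared by the whole of any role. Among the AP-1 factors, FOS, FOSB, JUN, JUNB and ATF3 were higher without overlap in both shRNA groups, whereas FOSL1, FOSL2 and JUND were not. JUND, the AP-1 partner that most resting cells express, was lower in sorted (118 ± 12.7, SD, n = 3) than in bulk sh-NC libraries (160 ± 6.63, n = 3). Among the feedback genes, DUSP1, the phosphatase that switches off p38 and JNK, rested at 15.2 ± 4.81 in bulk sh-NC tumors and reached 86.3 ± 12.8 in sorted sh-NC cells (n = 3 each), and the decay factor ZFP36 and the antiproliferative gene BTG2 had differences of 2.14 and 2.28. DUSP6, a phosphatase of ERK, went the other way, with 14.3 ± 2.81 in bulk and 8.43 ± 0.277 in sorted sh-NC libraries, and so did DUSP2 and DUSP5, which were under 1 scaled FPKM in all of these libraries. JUNB, ZFP36, BTG2, DUSP2 and DUSP5 were picked here after their values were seen. The 5 smallest differences among genes of at least 1 scaled FPKM were those of DUSP6 (-0.68), GADD45B (-0.60), JUND (-0.44), HSPH1 (-0.41) and GADD45G (-0.26) with sh-NC, and of DUSP2 (-0.77), DUSP6 (-0.36), HSPH1 (-0.35), GADD45G (-0.32) and NR4A2 (-0.28) with sh-B7-H3 (1).

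The 8 chaperones had a median difference of 0.07 with sh-NC, with 0 higher without overlap and 2 lower (HSPB1 and HSPH1), and of 0.24 with sh-B7-H3 (1), with 3 higher (HSPA1A, DNAJB1 and HSP90AA1) and 2 lower (HSPH1 and DNAJA1). Over all genes past the filter the shares were 16.9% higher and 21.3% lower with sh-NC, and 25% and 29.6% with sh-B7-H3 (1). HSPA1A was at 9.96, 11.6 and 11.6 in bulk sh-NC and at 11.7, 13.9 and 10.7 in sorted sh-NC libraries, which overlap. HSPA1B was at 17.7, 17.6 and 16.9 in bulk and at 16.1, 18.5 and 16.3 in sorted sh-NC libraries, which overlap too. HSPA8, the constitutive HSP70, had the highest level of the 41 genes in every group, with 670, 669 and 585 in bulk sh-NC and 591, 832 and 872 in sorted sh-NC libraries. In bulk sh-B7-H3 (1) it was at 684, 645 and 569, in sorted sh-B7-H3 (1) at 830, 646 and 643, and in sorted sh-B7-H3 (2) at 731, 691 and 688. The chaperones of the list thus did not share the sorted-over-bulk pattern of FOS, FOSB and EGR1 in the sh-NC libraries.

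Other genes of the same pathways gave a mixed picture. Of all genes past the filter, 16.9% were higher and 21.3% lower without overlap with sh-NC, and 25% and 29.6% with sh-B7-H3 (1). Of 48 other immediate-early genes in the table, 12 were higher and 14 lower in sorted than in bulk sh-NC libraries without overlap (median difference 0.08), and 24 higher and 7 lower with sh-B7-H3 (1) (median 0.31). Of 23 other heat shock genes, 8 were higher and 5 lower with sh-NC (median 0.23), and 6 higher and 4 lower with sh-B7-H3 (1) (median 0.07). Markers of other cells moved with the sorting as well: all 10 leukocyte markers were lower without overlap in sorted than in bulk libraries with either shRNA (median differences -4.46 and -4.17). Of 6 skeletal muscle markers, 5 were higher and 0 lower without overlap in sorted than in bulk sh-NC libraries (median 2.34). With sh-B7-H3 (1), 0 were higher and 1 lower (median -1.74). The part of all these markers in the differences of the 41 genes was not tested.

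**Figure D3:**
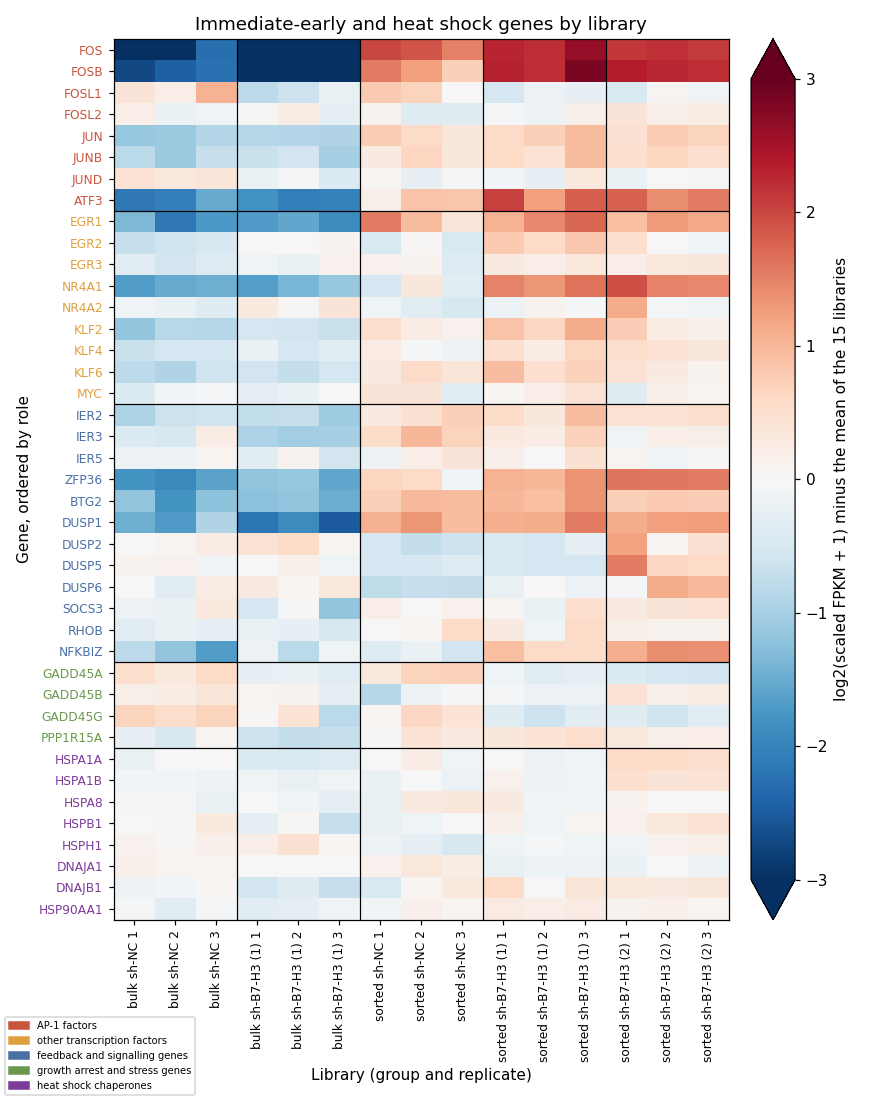
log2(scaled FPKM + 1) of the 41 genes (rows, coloured by role) in the 15 libraries (columns), minus each gene's mean over the libraries, with colours cut at -3 and 3. FOS and FOSB run from dark blue in bulk to red in sorted libraries, DUSP2, DUSP5 and NR4A2 are highest in sorted sh-B7-H3 (2) replicate 1, and the chaperone rows stay pale.

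The question of whether the B7-H3 shRNAs changed these genes was asked first in sorted sh-B7-H3 (1) against sorted sh-NC cells. The transcription factors FOSB, ATF3, NR4A1 and EGR2 and the signalling genes NFKBIZ and DUSP6 rose, and the growth arrest genes GADD45A and GADD45G fell. These were 6 higher and 2 lower among 38 genes tested, in a comparison where 13.4% of 11163 genes passed an adjusted p of 0.05 (9.03% higher, 4.38% lower). The median log2 fold change was 0.19 over the 38 genes and 0.00153 over all genes tested. Of the 38, 31 had a positive fold change, as did 5601 of all 11163 genes. NR4A2, DUSP2 and DUSP5 were too low to be tested.

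NR4A1, an orphan nuclear receptor induced by many signals, was at 6.37, 12.2 and 7.45 scaled FPKM in sorted sh-NC cells and at 28.4, 25.1 and 31.6 with sh-B7-H3 (1), without overlap. It had the largest change of the list (log2 fold change 1.64 ± 0.22 SE, limma adjusted p = 0.00167). FOSB rose from 24.1 to 44.0 over the sh-NC libraries to 69.3 to 107 (1.28 ± 0.25, limma adjusted p = 0.0112). ATF3, at 52.9 to 87.2 and 113 to 200, rose by 1.08 ± 0.27 (limma adjusted p = 0.0332). NFKBIZ, an inducible nuclear regulator of NF-κB, was at 5.54, 6.47 and 4.79 with sh-NC and at 15, 11.9 and 11.5 with sh-B7-H3 (1), again without overlap (1.06 ± 0.16, limma adjusted p = 0.0027).

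EGR2, a relative of EGR1, was at 3.25, 4.99 and 3.24 and at 9.19, 7.67 and 9.30 (1.02 ± 0.17, limma adjusted p = 0.00533). DUSP6 was at 8.15, 8.71 and 8.42 and at 12.3, 14.4 and 12.8 (0.58 ± 0.12, limma adjusted p = 0.0147). GADD45A, a p53 target that arrests the cell cycle, fell from 133, 171 and 172 to 96.8, 83.4 and 87.5 (-0.82 ± 0.16, limma adjusted p = 0.0104). Its relative GADD45G fell from 14.0, 21.1 and 18.1 to 10.1, 8.31 and 10.4 (-0.81 ± 0.17, limma adjusted p = 0.0179). The groups did not overlap for any of these 8 genes.

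FOS itself missed the threshold (0.58, 95% confidence interval 0.12 to 1.05, limma adjusted p = 0.107), as did EGR1 (0.45, -0.26 to 1.15, adjusted p = 0.445) and JUN (0.19, -0.20 to 0.57, adjusted p = 0.576). Of the 8 chaperones, 0 passed the limma threshold and 1, DNAJA1, had an unadjusted p under 0.05, and their log2 fold changes ran from -0.40 for DNAJA1 to 0.36 for DNAJB1. The interval was -0.46 to 0.19 for HSPA1A and -0.23 to 0.39 for HSPA1B, so changes within these bounds could not be told from none. Without the scaling factors, the median over the whole table moved to 0.17 in this comparison, and 9 genes of the list were then higher and 0 lower, the fall of GADD45A (-0.62) and GADD45G (-0.62) missing the threshold with adjusted p of 0.118 and 0.102. Over all genes 1409 of 11242 passed without the scaling factors. The 8 calls became 3 without sh-B7-H3 (1) replicate 3, 4 without sh-NC replicate 2 and 5 without replicate 1 or replicate 2 of sh-B7-H3 (1). Calls over all genes went from 1497 to 751, 980, 722 and 800 in the same fits. Summed levels of 8 macrophage markers were 62.0 to 63.7 in the sorted sh-NC and 142 to 163 in the sorted sh-B7-H3 (1) libraries, and those of the epithelial markers 821 to 1002 and 1433 to 1659. Those of the leukocyte markers were far lower, at 5.84 to 9.87 and 8.83 to 12.03, and overlapped. With sh-B7-H3 (1), 1 macrophage marker was higher and 7 lower in sorted than in bulk libraries. The part of all these markers in these changes was not tested.

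**Figure D4:**
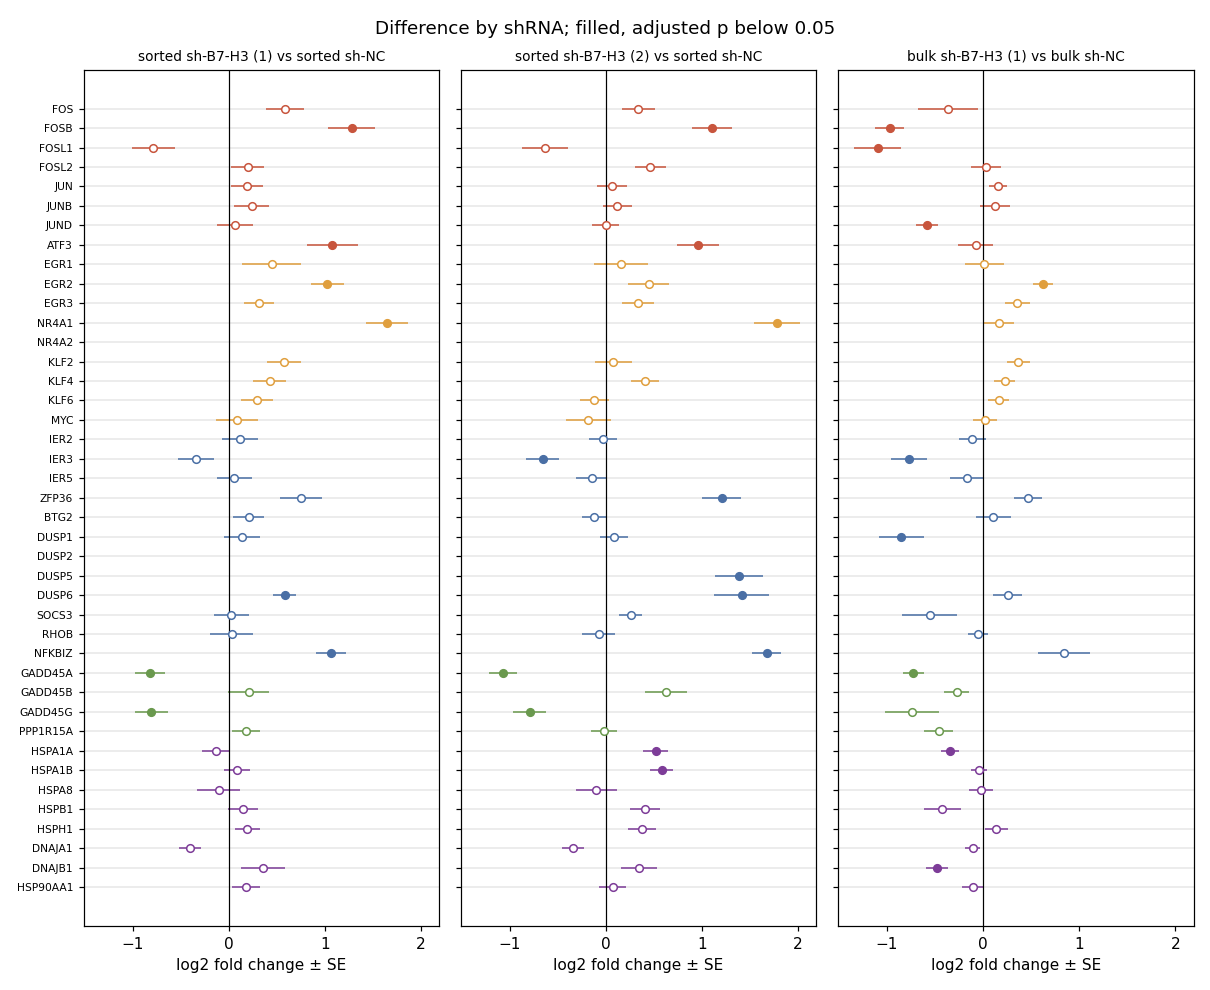
log2 fold change ± SE of each tested gene for sorted sh-B7-H3 (1) and (2) against sorted sh-NC and for bulk sh-B7-H3 (1) against bulk sh-NC, with filled points for an adjusted p below 0.05 and colours for the role; a row with no point was not tested. FOSB is to the right of 0 in both sorted panels (1.28 and 1.10) and to the left in bulk (-0.97), while GADD45A is to the left in all 3.

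With the other shRNA, sorted sh-B7-H3 (2) against the same sorted sh-NC libraries, 9 genes rose and 3 fell among 39 tested, where 19.1% of 11243 genes passed (11.7% higher, 7.44% lower). Without DUSP5, which passed the filter on low values only through the sh-B7-H3 (2) libraries, 8 rose and 3 fell among 38. The median was 0.16 over the list and 0.0097 over all genes tested. Because both sorted comparisons share the sh-NC libraries, they are not independent, and their values are given side by side. NR4A1 rose by 1.78 ± 0.24 (limma adjusted p = 0.00177), at 39.2, 28.1 and 27.3 scaled FPKM, NFKBIZ by 1.67 ± 0.15 (adjusted p = 0.000229), at 17.3, 21.5 and 21.3, FOSB by 1.10 ± 0.21 (adjusted p = 0.00878) and ATF3 by 0.95 ± 0.22 (adjusted p = 0.0196). ZFP36, which had reached 0.75 with sh-B7-H3 (1) without passing (adjusted p = 0.0635), rose by 1.2 ± 0.21 here (adjusted p = 0.00571), with 98.4, 97.3 and 92.6 against 49.9, 47.8 and 29.2. EGR2 did not pass with this shRNA (0.44, interval -0.06 to 0.94, adjusted p = 0.205).

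DUSP6 rose by 1.41 ± 0.29 (limma adjusted p = 0.0116), with 14.1 in replicate 1 and 32.8 and 29.7 in the others. GADD45A fell by 1.07 ± 0.15 on the log2 scale (adjusted p = 0.00205), with 80.0, 73.1 and 70.6, and GADD45G by 0.79 ± 0.17 (adjusted p = 0.0148). IER3, an early response gene that guards against apoptosis, fell from 168, 226 and 182 to 104, 131 and 129 (-0.66 ± 0.17, adjusted p = 0.0329). Without the scaling factors the median over the whole table was 0.21, and the list had 10 higher and 1 lower. Over all genes 1933 of 11344 passed without the factors. The 12 calls became 7 without sh-B7-H3 (2) replicate 2 and 5 without its replicate 3. Calls over all genes went from 2150 to 1052 and 962 in the same fits. Summed macrophage markers were 130 to 131 in replicates 2 and 3 and 480 in replicate 1 of sh-B7-H3 (2), against 62.0 to 63.7 with sh-NC, and their part was not tested.

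The inducible HSP70 genes rose with this shRNA. HSPA1A was at 18.3, 17.5 and 17.1 scaled FPKM in sorted sh-B7-H3 (2) cells, above the 10.3 to 13.9 of the 6 other sorted libraries (log2 fold change against sh-NC 0.52 ± 0.13, limma adjusted p = 0.029). HSPA1B was at 27.2, 25.0 and 25.3, above the 16.1 to 20.6 of the 6 others (0.58 ± 0.12, adjusted p = 0.0114). The remaining 6 chaperones did not pass, among them HSPA8 (-0.10 ± 0.21) and DNAJB1 (0.35 ± 0.19). DUSP5, a nuclear phosphatase of ERK, was listed at 0, 0 and 0.0866 in sorted sh-NC and at 3.15, 1.19 and 1.14 in sorted sh-B7-H3 (2) cells (1.39 ± 0.25 on the log2(scaled FPKM + 1) scale, adjusted p = 0.0069). Tested only through the sh-B7-H3 (2) libraries, it had to differ. DUSP5, DUSP2 (2.86, against 0.77 and 1.30) and NR4A2 (3.19, against 0.870 and 0.792) were highest in replicate 1, the library with a leukocyte marker sum of 353. Without that library, DUSP5 could not be tested, 8 genes of the list passed, beside 12.4% of 10901 genes (7.38% higher, 5.07% lower), and ATF3 (0.86, adjusted p = 0.0737), HSPA1A (0.49, adjusted p = 0.0967) and IER3 (-0.55, adjusted p = 0.118) missed the threshold, while HSPA1B stayed at 0.54 (adjusted p = 0.0498).

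**Figure D5:**
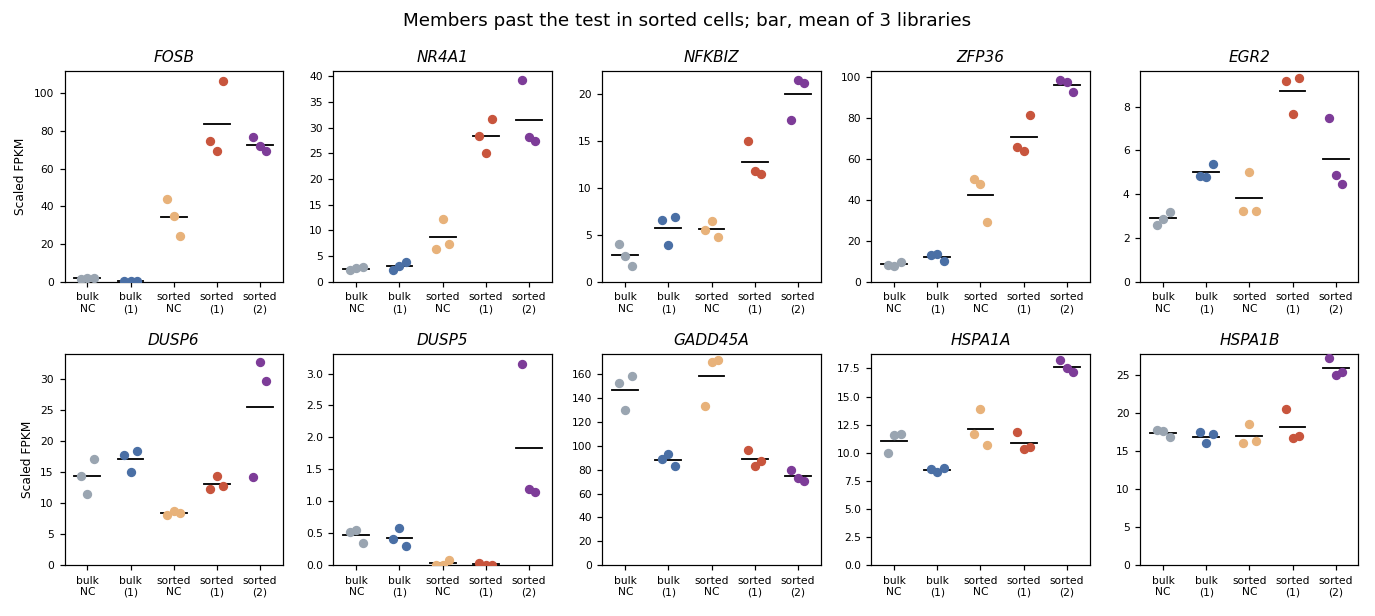
Scaled FPKM (linear axes from 0) of 10 genes in each library, where points are libraries and bars are means of 3. NR4A1, NFKBIZ and ZFP36 are highest in the sorted groups labelled sh-B7-H3, DUSP5 is above 1 in the 3 sorted sh-B7-H3 (2) libraries only, HSPA1A and HSPA1B separate sorted sh-B7-H3 (2) from the other sorted libraries, and GADD45A is lower in each group labelled as a knockdown.

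The shRNAs were also set against each other. Between sorted sh-B7-H3 (1) and sorted sh-B7-H3 (2) cells, 3 of 39 genes tested passed, all lower with (1), where 3.4% of 11239 genes passed (1.76% higher, 1.64% lower), and 2 of 38 without DUSP5. These were HSPA1A (-0.65 ± 0.09, limma adjusted p = 0.0135), HSPA1B (-0.50 ± 0.11, adjusted p = 0.0493) and DUSP5 (-1.41 ± 0.25, adjusted p = 0.0301), the last again tested only through its level with sh-B7-H3 (2) (adjusted p = 0.0877 with no filter). Summed levels of the fibroblast markers were 55.7 to 84.2 with (1) and 120 to 154 with (2), and their part was not tested. FOSB differed by 0.17 (interval -0.20 to 0.55, adjusted p = 0.567), NR4A1 by -0.14 (-0.50 to 0.23, adjusted p = 0.648) and ATF3 by 0.12 (-0.36 to 0.61, adjusted p = 0.763).

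Replicate numbers were taken to pair these groups only because same-numbered libraries had correlated deviations, and no label states a shared mouse or batch. With the number as a block 9 genes passed, 3 higher and 6 lower, beside 16.6% of 11239 genes (9.03% higher, 7.55% lower). Calls made only with the block therefore rest on a pairing that is not documented. The additional ones were EGR2 (0.58, adjusted p = 0.0471), KLF6 (0.42, adjusted p = 0.036) and GADD45A (0.26, adjusted p = 0.0409), higher with (1), and GADD45B (-0.42, adjusted p = 0.0231), NFKBIZ (-0.61, adjusted p = 0.0489) and ZFP36 (-0.45, adjusted p = 0.043), lower with (1). Without the leukocyte-rich replicate 1 of sh-B7-H3 (2) and without the block, 5 genes of 38 passed, beside 8.02% of 11092 genes (3.75% higher, 4.27% lower): HSPA1A (-0.63, adjusted p = 0.0128), DUSP6 (-1.19, adjusted p = 0.00127), NFKBIZ (-0.71, adjusted p = 0.0181), EGR2 (0.78, adjusted p = 0.00915) and KLF2 (0.68, adjusted p = 0.0333). Leaving out either replicate 2 or 3 of either group left 0 genes of the list past the limma threshold. Calls over all genes went from 382 to 83 and 55 without replicates 2 and 3 of sh-B7-H3 (1). Without those of sh-B7-H3 (2), they went to 68 and 35. In the fit of all 6 libraries 13 of the 39 had an unadjusted limma p under 0.05. The share of all genes at that level was not worked out, so nothing is read from that count.

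In bulk tumors with sh-B7-H3 (1), 1 of 38 genes tested rose and 8 fell, where 21.4% of 11800 genes passed (12.8% higher, 8.52% lower). Without FOSB, which could be tested only through one group, these were 1 and 7 of 37 genes. In either direction that was 21.6%, close to the 21.4% over all genes. By direction the balance differed, since most calls of the list were falls and most calls over all genes were rises. Of the 38 genes 16 had a positive fold change, as did 6207 of all 11800 genes, and the median was -0.07 over the list and 0.02 over all genes tested. EGR2 rose from 2.61, 2.87 and 3.19 scaled FPKM to 4.84, 4.81 and 5.36 (0.63 ± 0.10, limma adjusted p = 0.00966). FOSB was lower, at 0.318 to 0.503 against 1.34 to 2.23 (-0.97 ± 0.15, adjusted p = 0.00742), and it passed the filter only through the sh-NC libraries, so it had to differ (adjusted p = 0.0161 with no filter). FOSL1, an AP-1 factor of growing and invasive cells, fell from 17.5, 15.2 and 28.3 to 7.23, 8.04 and 11 (-1.10 ± 0.25, adjusted p = 0.0246), and JUND from 154 to 167 down to 93.6 to 120 (-0.58 ± 0.11, adjusted p = 0.0168).

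DUSP1 fell by 0.85 ± 0.23 on the log2 scale (limma adjusted p = 0.0426), with 13.6, 11.5 and 20.6 in sh-NC and 7.78, 9.67 and 6.16 in sh-B7-H3 (1) tumors, and IER3 by 0.77 ± 0.19 (adjusted p = 0.0307). GADD45A fell from 153, 130 and 158 to 89.1, 92.8 and 83.1 (-0.73 ± 0.11, adjusted p = 0.00703). Among the chaperones, HSPA1A fell from 9.96 to 11.6 down to 8.30 to 8.63 (-0.34 ± 0.09, adjusted p = 0.0434) and the HSP40 co-chaperone DNAJB1 from 17.6 to 20.6 down to 11.8 to 15.1 (-0.48 ± 0.11, adjusted p = 0.03). HSPA1B did not pass (-0.04, interval -0.24 to 0.15, adjusted p = 0.729). FOS (-0.37, -1.11 to 0.38) and EGR1 (0.01, -0.47 to 0.49) did not pass either.

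These bulk groups also differed in markers of other cells. Summed levels ran from 90.04 to 171 scaled FPKM in sh-NC and from 277 to 653 in sh-B7-H3 (1) tumors for 7 fibroblast markers, from 2.504 to 18.8 and from 30.5 to 616 for 6 skeletal muscle markers, from 1.30 to 2.40 and from 5.54 to 17.4 for 6 T cell markers, and from 5.47 to 11.2 and from 2.10 to 3.66 for 6 neutrophil markers. No marker of these lists was at 0 in all libraries of a bulk group, and their part in the changes of the 41 genes was not tested. Without the scaling factors 0 genes of the list were higher and 2 lower (FOSB and FOSL1). Over all genes 961 of 11658 passed without the factors. The 9 calls became 2 without sh-NC replicate 1 or without sh-B7-H3 (1) replicate 1, 3 without sh-NC replicate 3 and 5 without sh-NC replicate 2. Calls over all genes went from 2520 to 1362, 546, 782 and 1053 in the same fits.

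The sh-B7-H3 (1) effect in sorted cells minus that in bulk tumors was fitted as an interaction. Of 39 genes tested 1 passed, FOSB, where 0.464% of 12062 genes passed (0.249% higher, 0.216% lower). The effect on FOSB was 1.28 among sorted libraries and -0.97 among bulk libraries, a difference of 2.25 ± 0.31. The list was chosen for the sorted-over-bulk level of FOSB in these libraries, and its bulk effect rests on levels that passed the filter in sh-NC alone, so these values are a description and nothing is read from the count. NR4A1 had a difference of 1.48 ± 0.29 (adjusted p = 0.0539) and passed under 3 of 18 alternatives, without sorted sh-NC replicate 2, without bulk sh-B7-H3 (1) replicate 3 and on FPKM as deposited. The difference was 1.16 ± 0.35 for ATF3 (adjusted p = 0.207), 0.99 ± 0.31 for DUSP1 (adjusted p = 0.228) and 0.95 ± 0.39 for FOS (adjusted p = 0.319). Of the 39 genes 33 had a positive difference, as did 5882 of all 12062 genes, with a median of 0.23 against -0.01 over all genes tested. The mean of log2(scaled FPKM + 1) over the 41 genes was 4.25 ± 0.12 (SD, n = 3) in bulk sh-NC, 4.14 ± 0.07 in bulk sh-B7-H3 (1), 4.97 ± 0.09 in sorted sh-NC, 5.21 ± 0.13 in sorted sh-B7-H3 (1) and 5.28 ± 0.03 in sorted sh-B7-H3 (2) libraries, giving a sorted-minus-bulk difference of 0.72 with sh-NC and 1.08 with sh-B7-H3 (1).

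Among the 48 other immediate-early genes, 10 rose and 2 fell in sorted sh-B7-H3 (1) against sorted sh-NC cells, of 45 tested (26.7%, beside 13.4% of all genes). Of the 4 largest changes, those of the chemokine CXCL2 (0.309 to 0.469 scaled FPKM with sh-NC, 1.69 to 5.63 with sh-B7-H3 (1)) and of ID3, an inhibitor of helix-loop-helix factors (0.270 to 0.917 and 3.09 to 5.47), could be tested only through the group where they were high, and so they had to differ. The others were those of the chemokine CXCL1 (1.96 ± 0.38, limma adjusted p = 0.0116) and of the cytokine LIF (1.12 ± 0.15, adjusted p = 0.00151). Without the 4 genes that passed the filter through one group alone (CXCL2, ID3, PTGS2 and ZC3H12A), 7 rose and 2 fell of 41.

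With sh-B7-H3 (2), 17 rose and 4 fell of 45 tested (46.7%, beside 19.1% of all genes), and 13 rose and 4 fell of 41 without the same 4 genes. CXCL2 was at 8.34 to 15.9 and ID3 at 3.61 to 7.52, and CXCL1 (2.42 ± 0.36, adjusted p = 0.00286) and TNFAIP3, which ends NF-κB signalling (1.95 ± 0.18, adjusted p = 0.000248), rose. Summed levels of macrophage and, in replicate 1, of leukocyte markers were higher in these libraries too, as given above. Of 6 macrophage markers tested, 3 passed, all higher, and the part of these markers was not tested. Without replicate 1, 10 rose and 3 fell of 41 tested, beside 12.4% of all genes, with CXCL1 at 2.74 ± 0.33 (adjusted p = 0.00269) and TNFAIP3 at 2.02 ± 0.20 (adjusted p = 0.00126). Between the shRNAs 2 of 46 passed (4.35%, beside 3.4%), both lower with (1), namely the chemokine CCL2 (-1.76 ± 0.22, adjusted p = 0.00942) and TNFAIP3 (-1.25 ± 0.15, adjusted p = 0.00821), and without replicate 1 of sh-B7-H3 (2) 2 rose and 6 fell of 45, beside 8.02% of all genes. In bulk tumors 3 rose and 5 fell of 44 tested (18.2%, beside 21.4%), with CXCL1 (1.29 ± 0.34, adjusted p = 0.0392) higher and the factor MAFF (-1.29 ± 0.22, adjusted p = 0.0113) and the BH3-only gene PMAIP1 (-0.80 ± 0.13, adjusted p = 0.00861) lower.

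Among the 23 other heat shock genes, those that passed had all fallen. The shares set beside them below count all genes that passed in either direction. Of all genes, those that fell were 4.38% for sorted sh-B7-H3 (1), 7.44% for sorted sh-B7-H3 (2) and 8.52% in bulk. The list's share was above that in both sorted comparisons and near it in bulk, but it rests on 3, 4 and 2 genes, and nothing is read from it. With sh-B7-H3 (2), the share was not above that of all genes without replicate 1. HMOX1, the heme oxygenase of oxidative stress, fell in sorted sh-B7-H3 (1) (-0.78 ± 0.15, limma adjusted p = 0.00945), in sorted sh-B7-H3 (2) (-0.69 ± 0.18, adjusted p = 0.0373) and in bulk sh-B7-H3 (1) samples (-1.12 ± 0.20, adjusted p = 0.0116). In sorted sh-B7-H3 (1) cells DNAJA4 (-0.49 ± 0.13) and HSPA4L (-0.48 ± 0.13) fell as well, 3 of 22 tested (13.6%, beside 13.4%). DNAJB4 (-0.88 ± 0.15, adjusted p = 0.00499), ST13 (-0.58 ± 0.15, adjusted p = 0.0336) and STIP1 (-0.57 ± 0.15, adjusted p = 0.0315) fell with sh-B7-H3 (2), making 4 of 23 (17.4%, beside 19.1%). Without replicate 1 only DNAJB4 passed (-0.80, adjusted p = 0.0223), 1 of 23 tested, where 5.07% of all genes fell. In bulk tumors STUB1, a chaperone-linked ubiquitin ligase, fell too (-0.46 ± 0.11, adjusted p = 0.0271), making 2 of 23 (8.70%, beside 21.4%).

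Of 18 upstream regulators, HSF2, a heat shock factor, fell with sh-B7-H3 (1) in sorted cells (-0.83 ± 0.12, limma adjusted p = 0.00207) and in bulk tumors (-0.56 ± 0.11, adjusted p = 0.0183). In sorted cells that was 1 of 18 (5.56%, beside 13.4% of all genes). The kinase RPS6KA1 rose with sh-B7-H3 (2) (0.46 ± 0.13, adjusted p = 0.0439), again 1 of 18 (5.56%, beside 19.1% of all genes). It did not pass without replicate 1 (0.42, adjusted p = 0.131). In bulk tumors CREB1 and ELK4 rose (0.52 ± 0.12 and 0.47 ± 0.10) and MAP2K1 fell (-0.68 ± 0.14, adjusted p = 0.0206), making 4 of 18 with HSF2 (22.2%, beside 21.4%).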

How the data were processed

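Total RNA from 15 samples was sequenced as mRNA libraries and run by the authors through a pipeline that their methods call VIPER. Per the labels, the authors' processing notes name the build mm10. The aligner, the counter and the annotation are not given in the sources used here. The deposited table holds FPKM for 24917 symbols, made by the authors, and a second table, of log2 values for a subset of genes, was not used. Read totals are not in the tables. Steps between low values gave depths of 0.468 to 1 relative to sorted sh-NC replicate 1, so the precision of a low value in reads is not known.

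After 26 date-like symbols were left out, FPKM were divided by median-ratio factors (0.65 to 1.18) over 9872 genes of at least 1 FPKM in every library, and 1 was added before log2, which understates changes of low genes. A gene entered a comparison when at least 3 of its libraries reached 1 scaled FPKM. The test was limma 3.58.1, run in R 4.3.3 on the groups compared, with the prior variance following the mean (limma-trend), and Benjamini-Hochberg adjustment over all genes tested. Changed means an adjusted p below 0.05. The samples are described as biological samples of a group, and nothing more is said of their origin. The steps were tested on simulated data. Python 3.11.15, numpy 2.4.6, pandas 2.3.3, scipy 1.17.1 and matplotlib 3.10.9 were used.

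The 41 genes and the other lists were chosen with earlier results of these data known. Every listed gene is accounted for. Values per library were to be given for FOS, FOSB, JUN, EGR1, ATF3, HSPA1A, HSPA1B and HSPA8, and those past the threshold were to be named, up to 10 by size in a comparison, with the 5 largest and 5 smallest sorted-minus-bulk differences of genes averaging 1 scaled FPKM or more in either material. For the other lists, up to 4 genes past the threshold with the largest change in a comparison were to be named. A gene that this rule would name is not reported here. Any other gene named was chosen after its values were seen. Replicate numbers come from the sample titles. Deviations from group means of same-numbered libraries correlated at 0.209 to 0.229 between sorted sh-B7-H3 (1) and (2), over 0.1 for every pair, and these groups were taken as paired. What same-numbered libraries shared is not stated in the labels. Alternatives were FPKM as deposited, quantile normalization, a pseudocount of 0.1, no filter, replicate blocks, a fit of all groups, and leaving out each library.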

Additional observations from a re-analysis of the deposited data

Results flagged for a closer look

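The difference of FOSB between sh-B7-H3 (1) and sh-NC libraries had opposite signs in the 2 materials. It was 1.28 on the log2 scale in sorted cells, where all 3 sh-B7-H3 (1) libraries (69.3 to 107 scaled FPKM) were above all 3 sh-NC libraries (24.1 to 44.0), and -0.97 in bulk tumors, where all 3 (0.318 to 0.503) were below all 3 (1.34 to 2.23). The difference of these effects was 2.25 ± 0.31. Because the list was chosen for the sorted-over-bulk level of FOSB, and FOSB passed the filter in bulk through the sh-NC libraries alone, this value is a description that was not tested independently of the choice. Summed leukocyte markers were at 339 to 665 in bulk and 5.84 to 12.03 in these sorted libraries, and their part in the difference was not tested.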

How the results depend on the processing

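Counts of changed genes depended on single libraries and on scaling. Leaving out each replicate in turn gave 3 to 12 genes of the list for sorted sh-B7-H3 (1) against sh-NC, 5 to 16 for sorted sh-B7-H3 (2) against sh-NC, 0 to 5 between the shRNAs, 2 to 12 in bulk tumors and 1 to 2 for the interaction, and sorted-minus-bulk mean differences of 0.67 to 0.79 for sh-NC and 1.01 to 1.14 for sh-B7-H3 (1). On FPKM as deposited these differences were 0.85 and 1.35, with 2 genes passing in bulk tumors (961 over all genes) and 2 in the interaction (128 over all genes), where the median of all genes moved to 0.12. With no filter, 1 gene passed between the shRNAs and 5 in bulk tumors, beside 137 and 1954 over all genes. Calls over all genes also moved when each replicate was left out. In the order of the comparisons above, they were 722 to 1948, 962 to 3614, 35 to 890, 546 to 3793 and 12 to 72.

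With the replicate block, 3 genes passed for sorted sh-B7-H3 (1), 7 for sorted sh-B7-H3 (2), 9 between the shRNAs and 5 in bulk tumors. Over all genes 915, 1395, 1864 and 1413 passed. Only the shRNA groups met the rule for pairing, and in the other comparisons correlations of same-numbered libraries ran from -0.463 to 0.054, from -0.144 to 0.008 and from -0.411 to 0.382. NR4A1, NFKBIZ and EGR2 in sorted sh-B7-H3 (1) cells passed under all 12 alternatives run, and FOSB under 10. In sorted sh-B7-H3 (2) cells NR4A1, NFKBIZ, ZFP36, GADD45A and FOSB passed under all 12. None of these results reversed. Over single genes, 2379 alternative values kept their side of the threshold, 51 passed it newly and 108 lost it. The causes were not tested.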
